A study of Caenorhabditis elegans with 2 samples.

Results

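The cdc-48 ATPase and cofactor genes are 7 protein-coding genes of Caenorhabditis elegans, out of 19973 in the nuclear annotation: cdc-48.1, cdc-48.2, ufd-1, ufd-2, ufd-3, npl-4.1 and npl-4.2. They were taken by name as a pathway group and were chosen on the signal of 1 of them, since the promoter of cdc-48.1 holds one of the highest nuclear peaks in a chromatin immunoprecipitation (ChIP-seq) map of the nuclear hormone receptor NHR-43. The map was made from whole hermaphrodite L3 larvae of strain OP477, which carries unc-119(tm4063) III and the transgene wgIs477. The transgene encodes NHR-43 with GFP-FLAG at its C-terminus, and the chromatin was immunoprecipitated through GFP. Larvae were taken 36.5 h after synchronisation, which started from starved L1 animals hatched after bleaching. The 2 samples are biological replicates of this 1 group, so there is no second condition. The labels list a possible control experiment, whose libraries were not analysed here, and a peak at a gene is therefore not shown to depend on NHR-43.

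CDC-48, called p97 or VCP in mammals, is an AAA ATPase that pulls ubiquitin-marked proteins out of membranes, chromatin and complexes and unfolds them for the proteasome. UFD-1 and NPL-4 form the pair of adaptors that brings ubiquitin-marked substrates to the ATPase. UFD-2 is an E4 enzyme that lengthens ubiquitin chains, and UFD-3 is a ubiquitin-binding cofactor. In C. elegans the ATPase and NPL-4 are each encoded by 2 genes.

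A gene is called here when a peak summit lies between 1000 bp upstream and 200 bp downstream of its annotated 5′ end. Many C. elegans messenger RNAs are trans-spliced, so this end is often not the start of transcription. Thresholded peaks are the 3870 nuclear peaks of the list that, by its deposited name, the authors cut by irreproducible discovery rate, and relaxed peaks are those of the longer lists made as input for that step. Of the 7 genes, 3 were called with a thresholded peak (42.9%): cdc-48.1, ufd-3 and ufd-2. Over all protein-coding genes, 2010 of 19973 were called (10.1%). The choice of the group rests on the cdc-48.1 peak, so this share is a description and nothing is read from its size. Another 2 genes, cdc-48.2 and ufd-1, had only relaxed peaks in the window, and the windows of npl-4.1 and npl-4.2 held no summit of any list. The lowest thresholded peak had a signal of 61.424 and the next peak below it in the pooled list 61.419. Of the group, ufd-2 was the nearest above this level and cdc-48.2 the nearest below it.

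The 151 bases around the 3 thresholded summits are shown on each gene's own strand, because these 3 peaks carry the signal of the group. They were read from the WBcel235 genome, which is the ce11 build of the peak lists. Capitals mark words from a list of 10 that was searched on both strands. No annotated exon overlaps these stretches. They lie at chrII:10563483-10563633 (minus strand) for cdc-48.1, chrII:9940532-9940682 (plus strand) for ufd-3 and chrII:8062319-8062469 (plus strand) for ufd-2.
cdc-48.1: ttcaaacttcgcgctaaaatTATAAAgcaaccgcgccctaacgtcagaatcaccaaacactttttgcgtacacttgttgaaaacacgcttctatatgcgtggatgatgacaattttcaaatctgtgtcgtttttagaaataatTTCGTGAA
ufd-3: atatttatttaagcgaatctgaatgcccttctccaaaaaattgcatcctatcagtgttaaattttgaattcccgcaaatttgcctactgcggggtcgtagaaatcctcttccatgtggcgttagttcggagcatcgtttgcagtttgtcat
ufd-2: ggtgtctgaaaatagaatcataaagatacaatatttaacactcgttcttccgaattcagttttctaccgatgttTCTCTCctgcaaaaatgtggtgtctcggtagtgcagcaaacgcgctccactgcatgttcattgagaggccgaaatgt

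Among the ATPase genes, cdc-48.1 (WBGene00007352, chrII:10560036-10563407, minus strand) had the peak for which the group was chosen. Its summit lay between genes, 151 bp upstream of the 5′ end in the pooled list, 148 bp upstream in replicate 1 and 163 bp upstream in replicate 2. The signal value, which is the authors' own and whose scale belongs to its list, was 1213.79 in the pooled list, 444.2 in replicate 1 and 700.8 in replicate 2. These values stood at 57.6, 70.8 and 53.5 times the median nuclear peak of the same lists. The peak ranked 14 of 29981 nuclear peaks in the pooled list, 19 of 29297 in replicate 1 and 14 of 29979 in replicate 2. Both replicates thus held it among their 20 highest nuclear peaks, with summits 15 bp apart. It was 278 bp wide in the pooled list, against the most frequent width of 324 bp.

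The stretch upstream of cdc-48.1 is 704 bp long and ends at C06A1.6, a gene on the same strand, so the summit lies in the window of no other protein-coding gene. It also lies in the window of C06A1.9, a small nucleolar RNA gene inside cdc-48.1. The nearest tRNA gene was 258476 bp away. Within the gene itself there was no thresholded summit, and the relaxed lists held 4 summits there in the pooled list, 3 in replicate 1 and 3 in replicate 2. A weak thresholded peak lay 3519 bp downstream of the 5′ end, past the 3372 bp of the gene, with a signal of 96.04.

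The second ATPase gene, cdc-48.2 (WBGene00008053, chrII:8138496-8141230, plus strand), had no thresholded peak. The pooled list held a pair of weak summits in its window, 872 bp upstream with a signal of 35.0 and 280 bp upstream with 21.3. Replicate 1 had a summit 887 bp upstream with a signal of 7.09, and replicate 2 had one 325 bp upstream with 19.2. The replicate summits were 562 bp apart, so no site was shared within 100 bp. The cdc-48.1 peak was 34.7 times as high as the highest window peak of cdc-48.2 in the pooled list, 62.7 times in replicate 1 and 36.5 times in replicate 2. That cdc-48.2 peak was the one 325 bp upstream in replicate 2 and the farther one in the other lists, so these ratios do not repeat 1 comparison. The summit 872 bp upstream also lies in the window of the divergent gene ctns-1, whose 5′ end is nearer, at 706 bp.

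Both genes encode similar proteins. CDC-48.1 has 809 residues and CDC-48.2 has 810, with 88.1% identity in a global alignment, and their coding sequences were 75.5% identical. Their promoter windows were 50.3% identical over 1201 bases when aligned globally. The identity of unrelated promoter windows was not measured, so no likeness is read from this value. No 40-base stretch of the cdc-48.2 window occurred elsewhere in the genome. In the cdc-48.1 window 8.86% of such stretches did, and none of those within 75 bp of the summit did. The 151 bases around the 2 pooled summits of cdc-48.2 are shown for comparison with cdc-48.1, from chrII:8137549-8137699 and chrII:8138141-8138291 on the plus strand.
cdc-48.2, 872 bp upstream: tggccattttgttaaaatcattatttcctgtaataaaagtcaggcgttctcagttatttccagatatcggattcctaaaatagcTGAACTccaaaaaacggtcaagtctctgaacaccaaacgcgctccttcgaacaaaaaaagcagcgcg
cdc-48.2, 280 bp upstream: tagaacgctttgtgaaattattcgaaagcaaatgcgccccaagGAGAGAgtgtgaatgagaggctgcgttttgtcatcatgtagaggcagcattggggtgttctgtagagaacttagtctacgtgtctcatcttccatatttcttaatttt

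**Figure D1:**
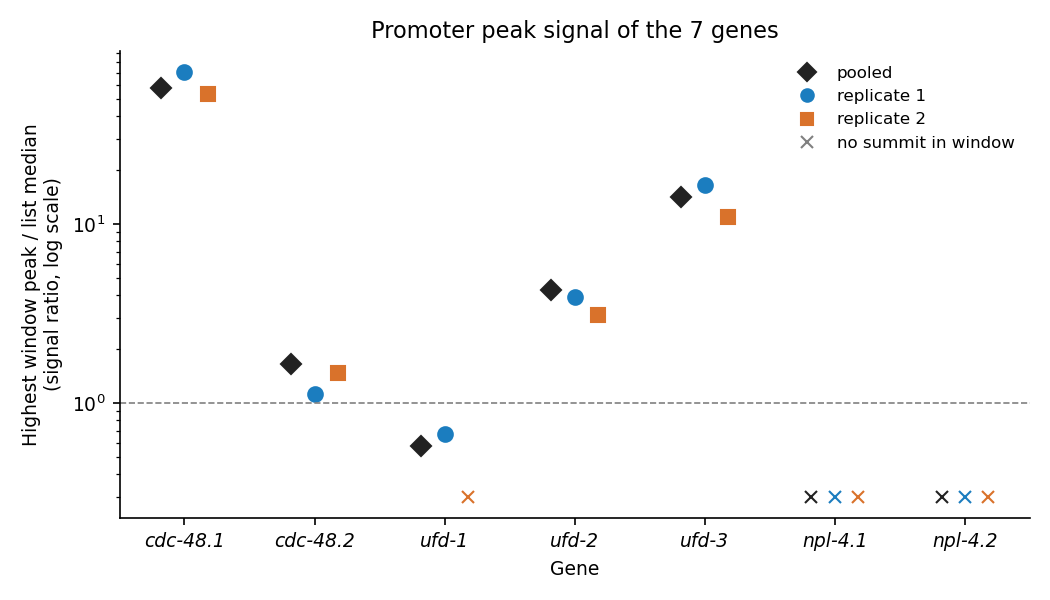
Signal of the highest window peak of each gene, divided by the median signal of nuclear peaks in the same list, on a log axis; diamonds are the pooled list, circles replicate 1 and squares replicate 2, and crosses mark lists with no summit in the window. In each list cdc-48.1 stands highest (53.5 to 70.8 times the median), ufd-3 and then ufd-2 follow, and cdc-48.2 lies at 1.13 to 1.66 times the median. The ufd-1 peak lies below the median (0.578 times in the pooled list, 0.673 in replicate 1) and is missing in replicate 2. Both npl-4 genes have no value.

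Of the cofactor genes, ufd-3 (WBGene00007333, chrII:9940753-9944107, plus strand) had the highest peak. The summit lay between genes, 146 bp upstream of the 5′ end in the pooled list, 118 bp upstream in replicate 1 and 152 bp upstream in replicate 2, with 34 bp between the replicates. Signal values were 297.3 in the pooled list, 104.2 in replicate 1 and 143.5 in replicate 2. The peak ranked 380, 385 and 522 among the nuclear peaks of these lists. The gap to C05C10.5, the next gene upstream on the same strand, is 320 bp, and no other protein-coding window holds the summit. At 234 bp in the pooled list the peak was narrower than that of cdc-48.1. A second thresholded peak lay 2907 bp upstream of ufd-3, between other genes, with a signal of 211.3 and a width of 165 bp.

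The E4 enzyme gene ufd-2 (WBGene00006734, chrII:8062741-8066193, plus strand) had the weakest thresholded peak of the 3. Its summit lay between genes, 347 bp upstream in the pooled list and in replicate 2, and 288 bp upstream in replicate 1. Signal values were 89.9 in the pooled list, 24.5 in replicate 1 and 40.7 in replicate 2. The peak ranked 2463 of the 3870 nuclear thresholded peaks, 2622 in replicate 1 and 3345 in replicate 2. Replicate 2 had a second summit 199 bp downstream of the 5′ end, just inside the window, with a signal of 18.5. The pooled list placed a summit with a signal of 20.9 at 239 bp downstream, just outside it, in an exon of ufd-2.

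The adaptor gene ufd-1 (WBGene00006733, chrIV:12329408-12330890, minus strand) had no thresholded peak. Only 85 bp separate it from F19B6.1 upstream on the same strand, so most of its window lies inside that gene. The pooled list held a summit with a signal of 12.2 at 508 bp upstream and replicate 1 one with 4.22 at 519 bp upstream, both in an exon of F19B6.1. Replicate 2 held none in the window. These values were 0.578 and 0.673 times the list medians. Relaxed summits are frequent: 34.8% of all protein-coding genes had one of the pooled list in the window, 36.0% one of replicate 1 and 35.2% one of replicate 2. Of the 7 genes, 5 had one in the pooled list, 5 in replicate 1 and 4 in replicate 2.

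**Figure D2:**
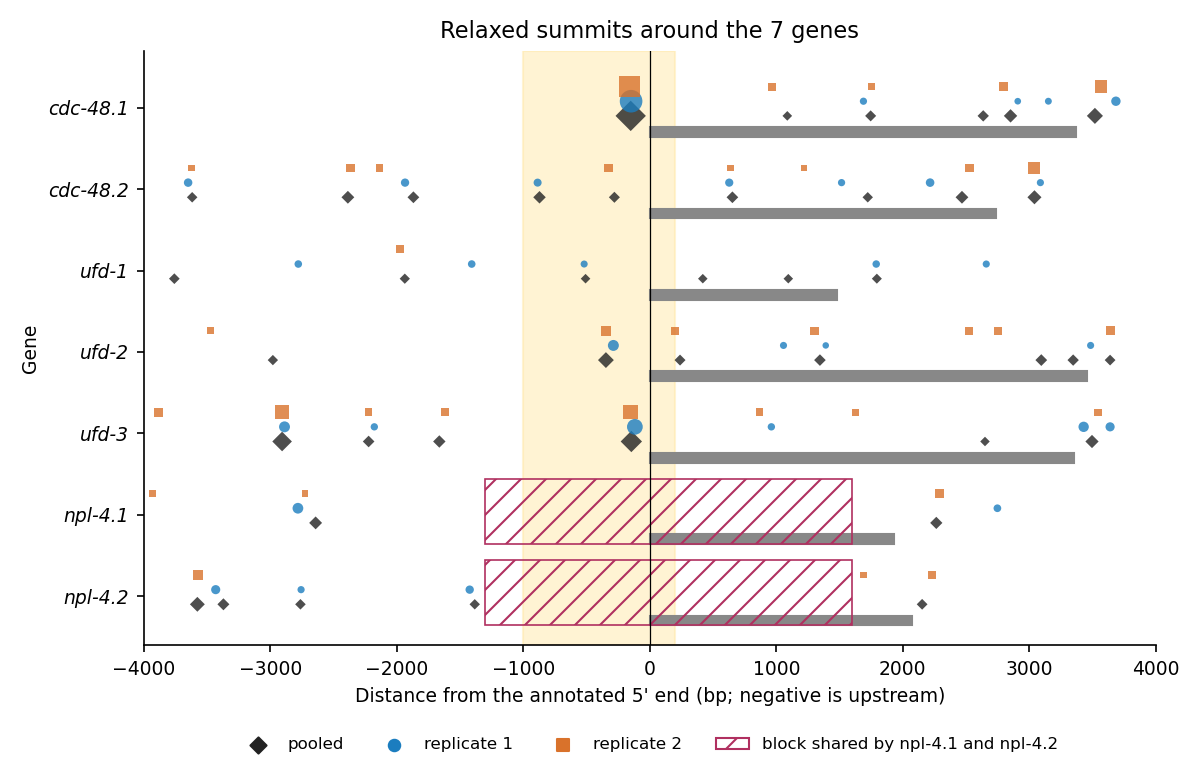
Summits of the pooled list (diamonds), replicate 1 (circles) and replicate 2 (squares) against the distance from each gene's 5′ end, in bp, negative upstream; symbol area grows with the square root of the signal over the list median, grey bars are the genes, the shaded band is the promoter window and hatching is the block shared by npl-4.1 and npl-4.2. The summits of cdc-48.1, ufd-3 and ufd-2 line up across the lists 118 to 347 bp upstream, and the hatched blocks hold no summit.

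The NPL-4 adaptor is encoded by npl-4.1 (WBGene00019120, chrII:5631351-5633284) and npl-4.2 (WBGene00019121, chrII:5622889-5624959), both on the plus strand. Neither window held a summit in the pooled list or in either replicate, which was also the case for 48.4% of all protein-coding genes. Both proteins have 529 residues and are 99.1% identical, and the coding sequences are 99.5% identical. The promoter windows are 99.9% identical. Extended without gaps in steps of 50 bases at 90% identity or more, the shared block runs from 1300 bp upstream to 1600 bp downstream of both 5′ ends. Over these 2900 bases the copies differ at 2 positions. The 5′ ends of their divergent neighbours, F59E12.6 at 399 bp from npl-4.1 and eif-3.L at 405 bp from npl-4.2, fall in the block too. The 100 bases upstream of the 5′ end read alike in both copies, at chrII:5631251-5631350 and chrII:5622789-5622888, and are shown to make that plain.
npl-4.1 and npl-4.2: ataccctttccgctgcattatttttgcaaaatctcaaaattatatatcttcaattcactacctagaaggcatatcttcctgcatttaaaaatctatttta

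No list had a summit in either copy of the block, and the chromosome held 0.324 pooled summits per kb. Pooled summits left stretches with a median of 982 bp between them on this chromosome. The stretch around npl-4.1 was 4907 bp, with 91.7% of stretches shorter, and that around npl-4.2 was 3537 bp, with 87.9% shorter. Stretches as long thus also occurred elsewhere on the chromosome. The shares count each stretch equally, although a longer stretch is more likely to hold a given gene, so no rarity is read from them. For npl-4.2, the nearest pooled summit lay 1384 bp upstream, 84 bp outside the block. The nearest of replicate 2 lay 1690 bp downstream, 91 bp outside the block, in an exon of npl-4.2 and with a signal of 6.33. For npl-4.1, the nearest pooled summits were 2642 bp upstream and 2265 bp downstream. How the peak calls treated reads that match several places is not given in the sources. In the npl-4.1 and npl-4.2 windows, 96.6% of 40-base stretches occurred elsewhere in the genome, against 0 in the median protein-coding window. Of the 572 protein-coding windows with over 50% of such repeated stretches, 91.4% had no summit in any relaxed list, against 47.1% of the 19401 others. A thresholded summit was found in 1.05% of the windows rich in repeats and in 10.3% of the others. These shares are over all genes, and whether repeated sequence has a part in the missing peaks of the npl-4 genes was not tested. These lists do not show whether the npl-4 promoters carry signal.

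**Figure D3:**
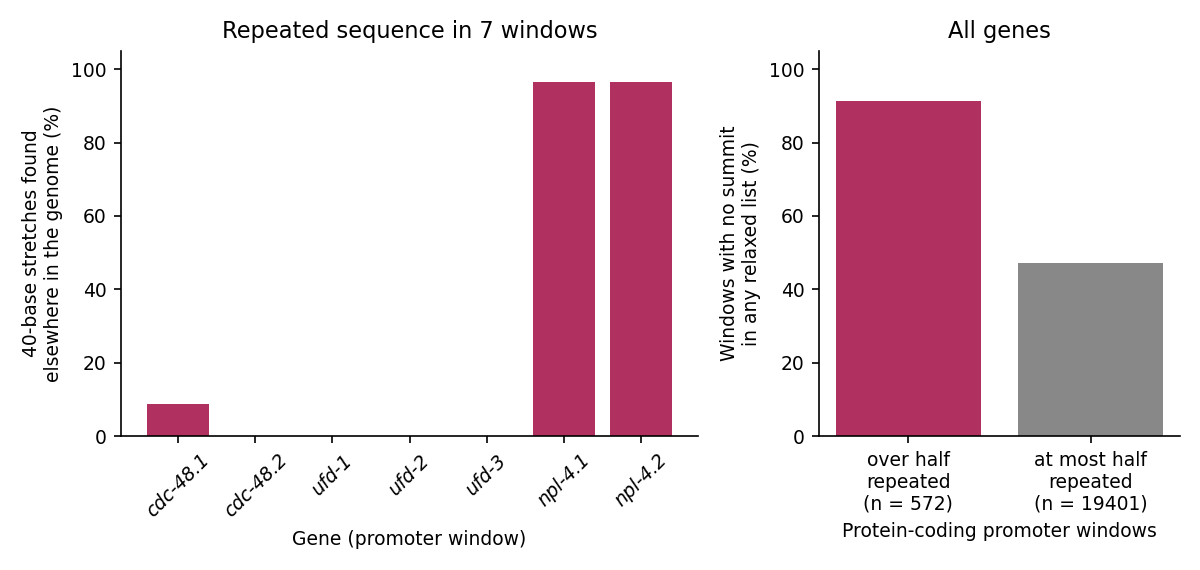
Left, share of 40-base stretches of each gene's promoter window that occur elsewhere in the genome, in percent; right, share of all protein-coding promoter windows with no relaxed summit, in percent, for windows with over 50% repeated stretches (n = 572) and the others (n = 19401). The npl-4.1 and npl-4.2 windows stand at 96.6% and the other 5 at 8.86% or less; windows without a summit made up 91.4% of the repeated and 47.1% of the other windows.

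The order of the 3 thresholded genes was the same in both replicates. Because the group was chosen on the cdc-48.1 peak, the first place of cdc-48.1 follows largely from that choice. The cdc-48.1 peak was 4.08 times as high as that of ufd-3 in the pooled list, 4.26 times in replicate 1 and 4.88 times in replicate 2. The ufd-3 peak was 3.31, 4.25 and 3.53 times as high as that of ufd-2 in these lists. The pooled list draws on both replicates and is no further replicate. The ufd-2 peak was 2.57, 3.46 and 2.12 times as high as the highest window peak of cdc-48.2, which in replicate 2 lay at another site. With 2 replicates no test was made of this order. Below cdc-48.2, ufd-1 was lower in replicate 1 (4.22 against 7.09) and had no summit in replicate 2.

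Summits of both replicates lay within 100 bp of each other at 3 of the 7 genes, the same 3 that had thresholded peaks. A list cut by irreproducible discovery rate favours peaks found in both replicates, so this match is partly built in. Replicate summits close to the peak were the usual case for thresholded peaks. Of the 3870 nuclear ones, 3022 (78.1%) had a summit of each replicate within 100 bp, measured from the thresholded summit and not between replicates. The distances were 15 bp at cdc-48.1, 34 bp at ufd-3 and 59 bp at ufd-2. Over those 3022 peaks, the median distance between those summits was 32 bp, with quartiles of 13 and 59 bp. The stronger the peak among these 3 genes, the closer its replicate summits lay. A relaxed summit of both replicates anywhere in the window was found at 4 of the 7 genes, cdc-48.2 being the additional one, and at 22.6% of all protein-coding genes.

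Set among the 2010 called genes, cdc-48.1 ranked 9 by its highest thresholded window peak, ufd-3 ranked 300 and ufd-2 ranked 1448. The median called gene had a signal of 128.4, with quartiles of 85.3 and 212.7, so ufd-3 lay above the upper quartile and ufd-2 between the lower quartile and the median. Called genes had their summit a median of 248 bp upstream of the 5′ end, with quartiles at 459 and 128 bp upstream. The summits of cdc-48.1 (151 bp), ufd-3 (146 bp) and ufd-2 (347 bp) all fell between these quartiles.

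**Figure D4:**
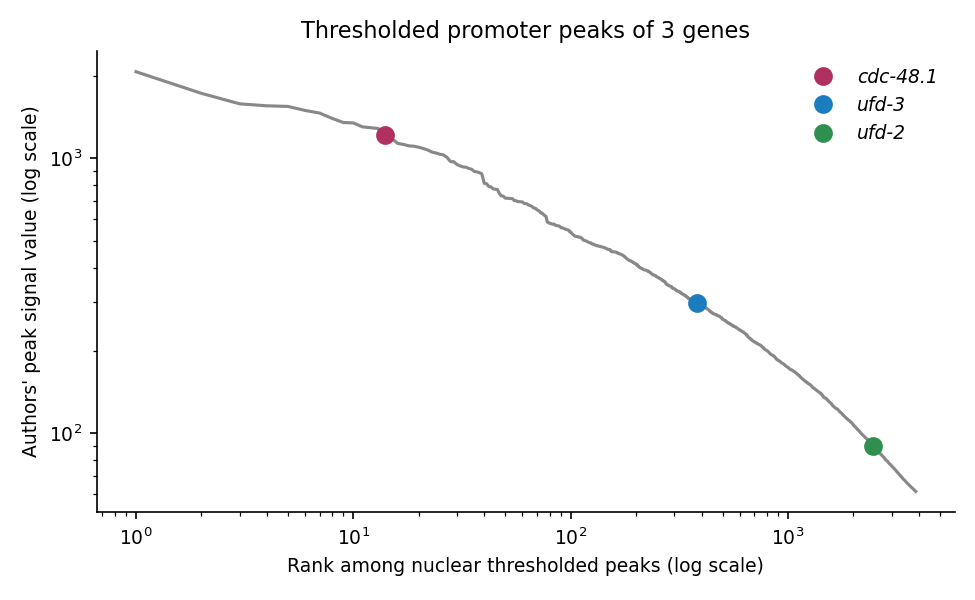
Signal value of the 3870 nuclear thresholded peaks against their rank, both on log axes, as a grey line, with the promoter peaks of 3 genes as points. The points lie at rank 14 for cdc-48.1 (1213.79), 380 for ufd-3 (297.3) and 2463 for ufd-2 (89.9), so the group spans most of the list.

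Genes with a promoter peak like that of cdc-48.1 were sought by the distance between log10 ranks in the pooled list and both replicates. The search covered the 1918 other called genes with a window peak in all 3 of these lists. The nearest were sec-61.G, which encodes part of the channel into the endoplasmic reticulum, and F32D8.13, which share 1 peak ranked 19, 31 and 20 (distance 0.295). Next came rpl-15, a ribosomal protein gene, and K11H12.8, which share a peak ranked 11, 9 and 15 (distance 0.342). The fifth place was tied between H12C20.7 and nhr-68, a nuclear hormone receptor gene, at 1 peak ranked 25, 26 and 24 (distance 0.370).

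The capitals in the printed sequences mark where the 10 searched words lay at the 3 thresholded summits. Shares over all summits or all windows are given beside them, and nothing is read from how many were found. At cdc-48.1, TATAAA started 55 bases before the summit and TTCNNGAA, the core of a heat shock element, was met 68 bases after it as TTCGTGAA. Among all nuclear thresholded summits, 10.1% had TATAAA within 75 bp and 6.85% had TTCNNGAA, which reads alike on both strands. At ufd-2, the GAGA-type word GAGAGA lay on the other strand across the summit, as it did within 75 bp of 26.8% of all summits on either strand. None of the 10 words lay within 75 bp of the ufd-3 summit. The nuclear receptor core AGGTCA was in the 1201-base window of none of the 7 genes, while 26.7% of all protein-coding windows held it. A further receptor word, AGTTCA, was absent within 75 bp of these 3 summits and was held by 7.91% of all. In the 1201-base windows it did occur, at cdc-48.1, cdc-48.2, ufd-2, npl-4.1 and npl-4.2, and in 57.9% of all protein-coding windows. The HNF4-type word CAAAGTCCA was absent within 75 bp of these 3 summits and was held by 0.233% of all. So were the words CCGCCC (7.26% of all summits) and CACGTG (8.71%), the GATA-type word TGATAAG (6.30%) and the longer word CTGCGTCTC (6.74%). Overlapping words were counted each on its own. The G+C content was 37.1% at the cdc-48.1 summit, 40.4% at ufd-3 and 41.7% at ufd-2, against 43.2% ± 7.06 over all summits (SD, n = 3870).

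Other genes that work with the ATPase were taken from 5 lists. Of 11 further cofactors, 2 were called: ubxn-2, the p47 homologue (signal 147.2), and rad-23, a shuttle that carries ubiquitin chains to the proteasome (81.3). The rad-23 summit lies also in the window of rpn-12. Among those not called were atx-3, the ataxin-3 homologue, with a pooled signal of 57.7, and chn-1, the ubiquitin ligase that acts with UFD-2, with 14.3.

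In the list for degradation of proteins from the endoplasmic reticulum, 4 of 11 genes were called. These were rnf-121, a membrane ubiquitin ligase (292.2, shared with C16C10.4), ubc-6 (150.8, shared with aka-1) and ubc-7 (138.1), which encode ubiquitin-conjugating enzymes, and cup-2, a derlin gene (123.8, shared with tag-353). The ligase gene sel-11 and its partner sel-1 had only relaxed pooled peaks, with 32.4 and 18.1.

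The unfolded protein response list had 5 of 6 genes called. The chaperone gene hsp-3 was the highest at 283.4, followed by the sensor genes atf-6 (144.1) and ire-1 (103.9), the transcription factor gene xbp-1 (94.4) and the kinase gene pek-1 (62.4), which lay just above the threshold. Its other chaperone gene, hsp-4, had a pooled signal of 47.1. No other protein-coding window held the summits of these 5 genes.

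Other AAA ATPase genes were called in 5 of the 10 cases that matched the annotation, with fignl-1 unmatched. These were atad-3 (322.5, shared with nrde-2), vps-4 (193.4), spas-1 (188.4), pch-2 (87.7) and nsf-1 (63.6, shared with adr-1), and cdc-48.3 was not called, with a pooled signal of 16.2. Of 3 ubiquitin genes, ubq-2 (183.3, shared with frg-1) and the activating enzyme gene uba-1 (152.1) were called. Set beside the 10.1% of all protein-coding genes, the shares were 18.2% for the cofactors, 36.4% for degradation, 83.3% for the unfolded protein response and 66.7% for ubiquitin. In signal, none of these 18 called genes reached cdc-48.1, and atad-3 alone exceeded ufd-3.

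**Figure D5:**
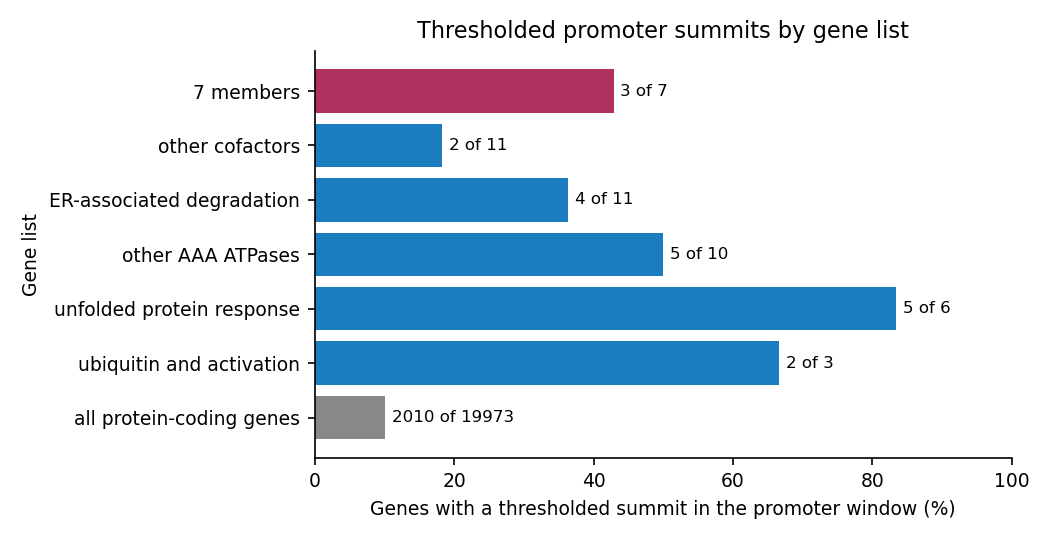
Share of genes with a thresholded summit in the promoter window, in percent, for the 7 genes, the 5 related lists and all protein-coding genes, with the counts beside the bars. The 7 genes stand at 42.9% (3 of 7) and all protein-coding genes at 10.1%, the unfolded protein response list at 83.3% (5 of 6), and no test was made between lists.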

How the data were processed

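The 2 samples are ChIP-seq replicates of 1 group. Per the deposited file descriptions, the authors called 1 relaxed peak list on each replicate's ce11 alignment and 1 on both alignments, each together with 1 further shared file of unstated type, and made the thresholded list from these. No source used here gives the aligner, the peak caller or a version. The authors deposited a signal value for each peak, of unstated scaling, which was used only within its own list. The −log10 q values deposited by the authors reach a ceiling and were not used. Read depth is not given, so no interval on a signal was computed.

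The ce11 lists were joined to the Ensembl release 115 annotation of WBcel235, and no peak ran past a chromosome end of that genome. The ce10 lists were not used. Coordinates count from 1. All 3889 thresholded peaks are also in the pooled list, so these are not independent. The 19 mitochondrial peaks were left out. Ranks are among nuclear peaks.

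The members and the lists were chosen with earlier results of these data known. The genes named are the 7 members, the genes that share their summits, called genes of the lists and the genes in the first 5 places by likeness to cdc-48.1, which are 6 with a tie. Neighbours, uncalled list genes and the shared block were named after their values were seen. No test was run, since there is no second condition. Sequence identities come from global alignments in Biopython 1.88. Repeated stretches were counted on both strands. Window assignment was tested on simulated summits at 200 genes, and all 200 were recovered.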

Additional observations from a re-analysis of the deposited data

How the results depend on the processing

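Of the 7 genes, cdc-48.1, ufd-3 and ufd-2 were called with narrower or wider windows, other 5′ ends, peak overlap and each replicate alone. With the upper part of the thresholded peaks by signal, ufd-2 was lost and 2 were left. With the pooled relaxed list the count of called genes was 5, and that of the other cofactor and degradation genes was 16 in place of 6. When a summit counted for just 1 gene, that of the closest 5′ end up to 2000 bp away, 3 of those 6 were left. The share of all protein-coding genes was 5.88% with the upper part of the peaks, 34.8% with the pooled relaxed list and 10.8% with the closest 5′ end. By construction these alternatives keep fewer or more peaks, or count a summit for just 1 gene. What caused the shifts was not tested. Within 50 bp of a summit, 1 of the 10 words was found at the 3 summits, in place of 3 within 75 bp. The cdc-48.1 rank lay between 14 and 19 when either replicate was left out. At a distance of 50 bp, ufd-2 no longer counted as shared by both replicates. The repeated share of the npl-4 windows was 95.7% with stretches of 50 bases. No paired analysis was possible because there is only 1 group. Unknown read depth limits what a missing summit shows, as do the 2 replicates.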

Other observations

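The word CGCGCT was picked after the printed sequences were read, and no test was made. It occurs at the cdc-48.1 and ufd-2 summits and at the cdc-48.2 summit 872 bp upstream, on 1 or the other strand, and is in the windows of 4 of the 7 genes, ufd-1 being the fourth. Within 75 bp, 7.60% of the 3870 nuclear thresholded summits held it, against 1.99% of the 7740 windows centred 500 bp to either side, and 14.4% of protein-coding promoter windows did.

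Near cdc-48.2, replicate 2 held a peak 3041 bp downstream of the 5′ end, in an exon of ints-11, with a signal of 72.8 and rank 1585, while replicate 1 had 4.47 at 3088 bp downstream and rank 20129. The thresholded peak nearest to npl-4.2 lay 3577 bp upstream, in an exon of dhs-6, with a signal of 70.2.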
